A study of Mus musculus with 6 samples.

Results

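The transcripts described here are those of 9 genes of central myelin, Mbp, Mog, Mag, Cnp, Mobp, Cldn11, Mal, Ermn and Ugt8a, measured in microglia sorted from mouse optic nerve. They were chosen by name, not by level, and each matched 1 of the 37447 genes in the deposited table. The 6 libraries came from C57BL/6 mice of 3 months. All of the mice carried Nf1 flox/mut, that is 1 conditional and 1 mutant copy of the neurofibromatosis type 1 gene. The 2 FM libraries had these alleles alone and served as controls (FM 1 male, FM 2 female). The 4 FMC libraries had GFAP-Cre in addition, so the conditional copy is removed where the astroglial GFAP promoter is active and not by design in microglia (2 female libraries, FMC 1 and FMC 4, and 2 male, FMC 2 and FMC 3). They are biological replicates by their labels. No source used here says whether nerves of several mice were pooled. The values are FPKM, fragment counts scaled to transcript length and library size, and read totals were not used here.

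Myelin is the membrane that oligodendrocytes wrap around axons, and the optic nerve is a heavily myelinated tract. Its compact layers are held together by basic and proteolipid proteins, its loops and inner face carry enzymes, adhesion molecules and tight junctions, and its lipid is rich in galactolipids. Microglia are the resident macrophages of the nerve, and they take up myelin debris. Oligodendrocytes transport the Mbp messenger into the sheath.

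Myelin transcripts were low in all 6 libraries. Of 54 values (9 genes in 6 libraries), 21 reached 1 FPKM, 5 reached 10 FPKM and 3 were listed at 0. The highest single value was 22.5 FPKM, for Cnp in FM 2. Cnp and Mbp were at 1 FPKM or more in every library, whereas Mog, Mal and Ermn were under 1 FPKM in every library. The FPKM of the 9 genes summed to 14.6 (FM 1) and 33.0 (FM 2) in the controls, and to 43.8, 28.2, 24.2 and 25.4 in FMC 1 to FMC 4. Cnp alone made up between 20.0% (FMC 3) and 68.3% (FM 2) of that sum. In these bulk libraries a smaller number of cells of a type and less RNA per cell cannot be told apart.

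Markers of microglia, taken from a list of 12 genes, were far higher by their median. P2ry12, the purinergic receptor of resting microglia, was between 185 and 403 FPKM, Tmem119 between 156 and 440 FPKM, and the fractalkine receptor gene Cx3cr1 between 70.3 and 110 FPKM. Fcrls, named after its values were seen, was the lowest of the 12, between 5.23 FPKM (FMC 3) and 50.6 FPKM (FM 2). In FMC 3 it lay below Mag (11.2 FPKM) and Mbp (6.38 FPKM). The median of the 12 ran from 174 to 369 FPKM over the libraries, and the median of the 9 myelin genes from 0.228 to 1.498 FPKM. Within a library the first median was between 116 and 1261 times the second. The labelled cell type therefore matched its markers in each library. Libraries summed to between 420285 and 674799 FPKM, with 13390 to 15562 genes at 1 FPKM or more. Nf1 was between 39.3 and 50.0 FPKM over FM and 48.0 and 138 FPKM over FMC (limma, adjusted p = 0.993), a level that does not check a deletion driven in other cells.

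**Figure D1:**
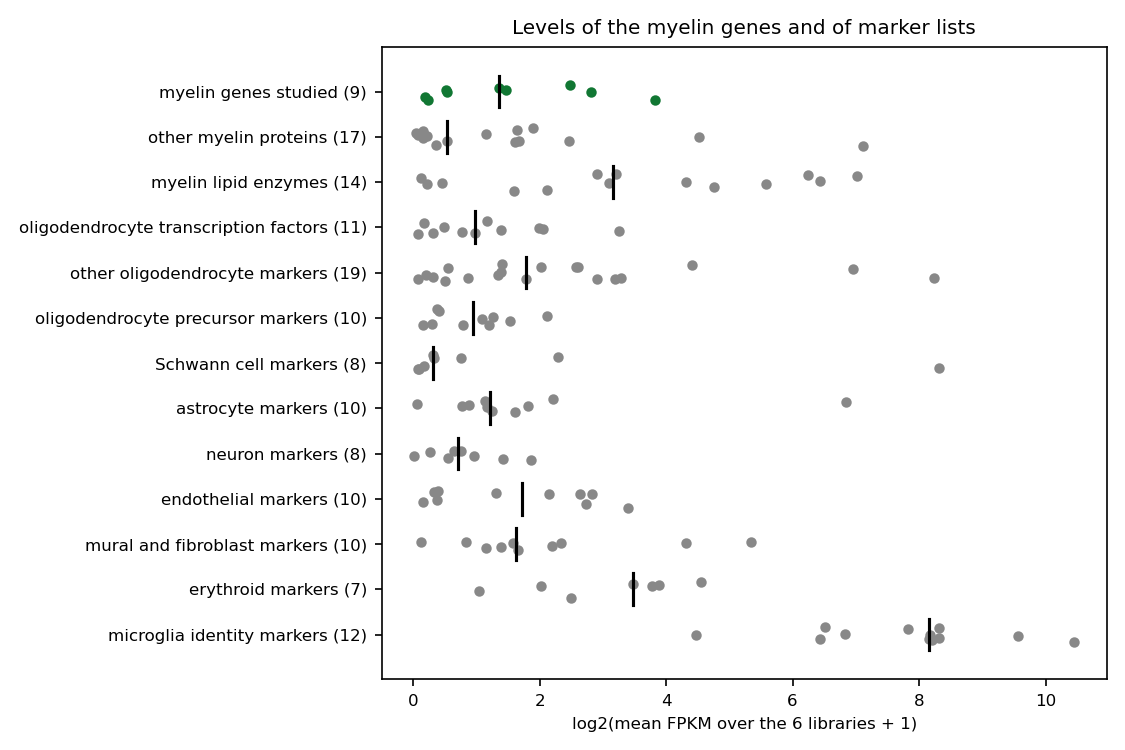
Each point is 1 gene, placed by the log2 of its mean FPKM over the 6 libraries plus 1, and the vertical line is the median of its list, with the number of genes in brackets. The 9 myelin genes (green) lie toward the low end of the axis. The median of the 12 microglia identity markers lies toward the high end, with Fcrls the lowest of the 12.

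Among the proteins of compact myelin, Mbp encodes myelin basic protein, which joins the cytoplasmic faces of the membrane. It stood at 1.05 FPKM (FM 1) and 3.89 FPKM (FM 2) in the controls, against 17.9, 5.22, 6.38 and 1.79 FPKM in FMC 1 to FMC 4. FMC 1 was the highest library and FM 1 the lowest, and the groups overlapped, since FMC 4 lay below FM 2. The gene (ENSMUSG00000041607) lies on chromosome 18 from 82644538 to 82755029 on the plus strand in the mm9 build, which all gene positions given here use. GENCODE M21 lists 14 protein-coding transcripts for it, of which 2 span more than 50000 bases. The golli class of transcripts, which begins at an upstream promoter, is also made in cells of the immune system, and a value per gene does not separate it from the myelin forms. An intron of Mbp also holds Rpl21-ps8, a processed pseudogene of a ribosomal protein gene on the other strand (82692899 to 82693439), which was between 37.8 and 175 FPKM. The pseudogene shares 0 exon bases with Mbp in GENCODE M21. FMC 4 had the highest Rpl21-ps8 and 1.79 FPKM of Mbp. FMC 1, the highest in Mbp, had 79.5 FPKM of Rpl21-ps8, and FM 1, the lowest in Mbp, had 46.0 FPKM. Whether reads of the pseudogene add to the values of Mbp was not tested.

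Mobp encodes a small basic protein of compact myelin made late in myelination (ENSMUSG00000032517, chromosome 9, 120058860 to 120090602, plus strand). Its values were 0.181 FPKM (FM 1) and 4.50 FPKM (FM 2) in the controls, against 3.53, 0.580, 0.234 and 0.279 FPKM in FMC 1 to FMC 4. FM 2 and FMC 1, both labelled female, were the only libraries above 1 FPKM, and each genotype had 1 of them. Mal, a proteolipid that sorts membrane to myelin (ENSMUSG00000027375, chromosome 2, 127458962 to 127482431, minus strand), was at 0.344 FPKM (FM 1) and 0.0675 FPKM (FM 2) in the controls, against 0, 0.157, 0.136 and 0.0806 FPKM in FMC 1 to FMC 4.

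Cnp and Mag belong to the uncompacted parts of the sheath. Cnp encodes a phosphodiesterase that keeps cytoplasmic channels open in myelin (ENSMUSG00000006782, chromosome 11, 100436218 to 100453043, plus strand). It was at 8.15 FPKM (FM 1) and 22.5 FPKM (FM 2) in the controls, against 21.6, 9.50, 4.83 and 11.96 FPKM in FMC 1 to FMC 4. Cnp varied least of the 6 members that were above 0 in every library, with 4.67 times between the highest and the lowest. Its level was higher than that of Mbp in 5 of 6 libraries. The 3 female libraries held its 3 highest values.

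The span of Cnp overlaps that of Dnajc7, a cochaperone gene on the minus strand (100444132 to 100481482), by 8912 bases. In GENCODE M21 154 of the 3639 exon bases of Cnp are also exon of Dnajc7. Dnajc7 was at 117 FPKM (FM 1) and 232 FPKM (FM 2) in the controls, against 165, 122, 193 and 303 FPKM in FMC 1 to FMC 4, which is between 7.66 and 39.9 times the value of Cnp. No source used here gives the strand setting of the counting, so reads from the shared bases cannot be assigned to one gene or the other. Cnp was highest in FM 2 and lowest in FMC 3, whereas Dnajc7 was highest in FMC 4 and lowest in FM 1. How far Dnajc7 reads add to the values of Cnp was not tested.

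Mag encodes the adhesion molecule by which the inner turn of myelin holds the axon (ENSMUSG00000036634, chromosome 7, 31684202 to 31699851, minus strand). Its values were 3.48 FPKM (FM 1) and 0.717 FPKM (FM 2) in the controls, against 0.228, 8.22, 11.2 and 3.63 FPKM in FMC 1 to FMC 4. FMC 3 was 49.0 times FMC 1, the widest span of any member that was above 0 in every library. Both FM libraries lay within the range of FMC. FM 2 and FMC 1, the libraries with the highest Cnp and the highest Mobp, had the lowest Mag. FMC 3, the library with the highest Mag, had the lowest Cnp.

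Of the other members, Cldn11 forms the tight junctions between myelin layers (ENSMUSG00000037625, chromosome 3, 31048868 to 31063246, plus strand). It was at 0.691 FPKM in FM 1, listed at 0 in FM 2, and it reached 0.432, 1.92, 0.221 and 7.29 FPKM in FMC 1 to FMC 4. FMC 4, which was low in Mbp and Mobp, was the highest library, and FM lay within the range of FMC apart from the 0 in FM 2. Ugt8a, the enzyme that makes galactocerebroside (ENSMUSG00000032854, chromosome 3, 125568277 to 125641468, minus strand), was at 0.121 FPKM (FM 1) and 0.670 FPKM (FM 2) in the controls, against 0, 1.498, 0.141 and 0.267 FPKM in FMC 1 to FMC 4. Ermn, a cytoskeletal protein of late oligodendrocytes (ENSMUSG00000026830, chromosome 2, 57897524 to 57905275, minus strand), was at 0.462 FPKM (FM 1) and 0.467 FPKM (FM 2) in the controls, against 0.0854, 0.494, 0.988 and 0.0695 FPKM in FMC. Its end overlaps that of Galnt5 on the plus strand by 748 bases, with 237 exon bases in common, and Galnt5 ran from 0.00503 to 2.75 FPKM.

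Mog encodes a glycoprotein of the outermost myelin surface and is specific to oligodendrocytes (ENSMUSG00000076439, chromosome 17, 37147691 to 37160343, minus strand). It was at 0.0737 FPKM (FM 1) and 0.139 FPKM (FM 2) in the controls, against 0.0630, 0.660, 0.0877 and 0.0406 FPKM in FMC 1 to FMC 4. FMC 2 stood apart from the other 5 libraries. The end of Mog lies 110 bases from that of Zfp57, which encodes a zinc finger protein on the plus strand. Zfp57 was at 16.04 FPKM in FMC 2 and between 0.0125 and 1.10 FPKM in the other 5 libraries, so both genes were highest in FMC 2. Whether fragments that run past the end of Zfp57 were counted for Mog was not tested.

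**Figure D2:**
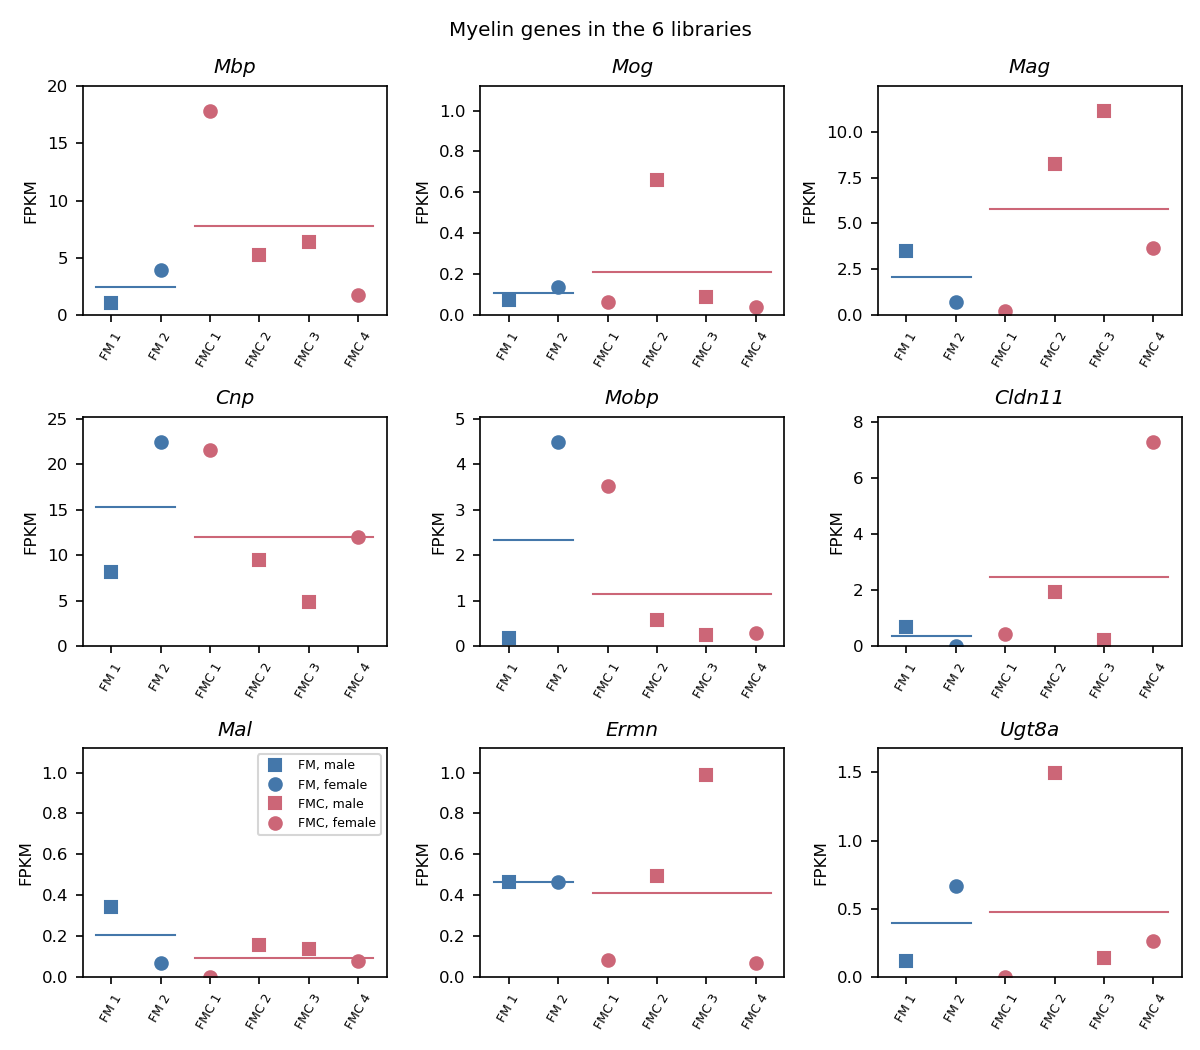
Each panel shows the FPKM of 1 myelin gene (vertical axis, linear from 0) in the 6 libraries, FM in blue and FMC in red, with squares for male and circles for female, and horizontal lines at the group means. The values of FM and FMC overlap in all 9 panels, and the highest library differs from gene to gene.

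**Figure D3:**
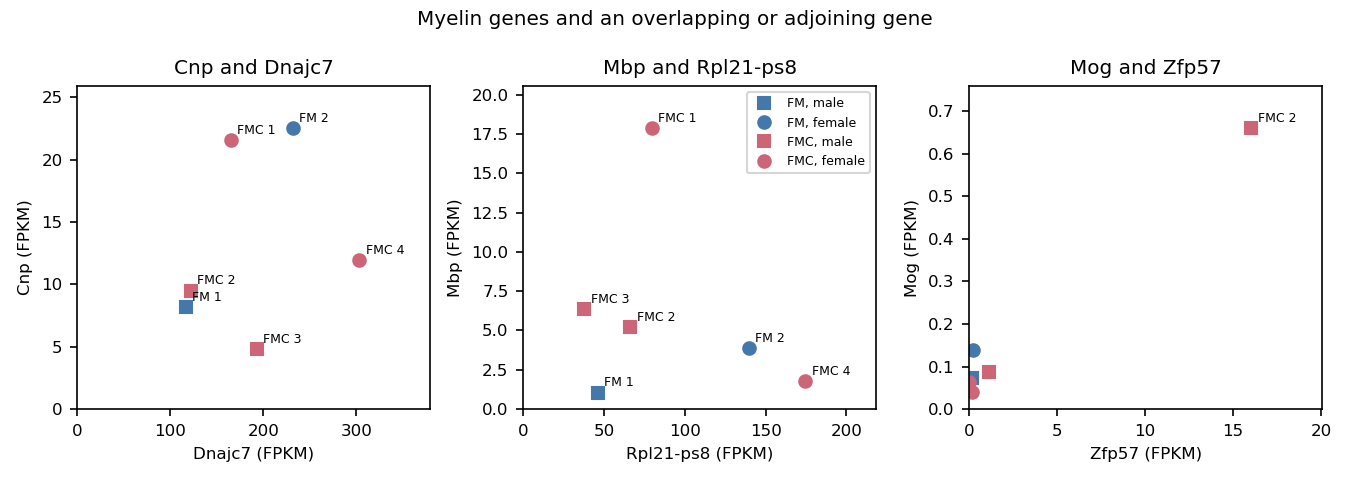
Each point is a library, with the FPKM of a myelin gene (vertical) against that of a gene that overlaps or adjoins it (horizontal), both on linear axes from 0. Dnajc7 is between 117 and 303 FPKM where Cnp is between 4.83 and 22.5 FPKM, and FMC 2 alone is high in both Mog and Zfp57.

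The members did not rise and fall together. Each of the 6 libraries held the highest value of at least 1 member: FM 2 that of Cnp and Mobp, FMC 2 that of Mog and Ugt8a, FMC 3 that of Mag and Ermn, FM 1 that of Mal, FMC 1 that of Mbp and FMC 4 that of Cldn11. No library had all of them high, and between 3 and 5 of the 9 reached 1 FPKM in each. By mean FPKM over the 6 libraries the order was Cnp (13.1 ± 7.3, SD, n = 6), Mbp (6.03 ± 6.14), Mag (4.57 ± 4.30), Cldn11 (1.76 ± 2.79), Mobp (1.55 ± 1.94), Ugt8a (0.449 ± 0.563), Ermn (0.428 ± 0.337), Mog (0.177 ± 0.239) and Mal (0.131 ± 0.118). Every pair of neighbours in this order differed by less than the sum of their SDs. Mbp exceeded Mag in only 2 of 6 libraries, and Cldn11 exceeded Mobp in 3 of 6. In centred log2(FPKM + 1) values, Cnp and Mobp were the most alike of the tested members (root mean square difference 0.44), and Mag and Mobp the least alike (2.03). Against 37021 genes with a value in every library, zeros included, Cnp ranked between the 77.1 and the 89.8 percentile. Mog ranked between the 36.0 and the 54.3 percentile. These ranks count 6708 genes that were at 0 in all libraries. Genes at 1 FPKM or more had a median between 6.71 and 8.89 FPKM by library.

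The promoter windows of Cnp, Mag and Mobp are shown because they alone among the windows of the members held a match to the motifs searched. RefSeq promoters (GRCm38.p6) were matched for 8 of the 9 members, all but Mbp, in 10 windows, of which Mag has 3. The 250 bases before each start were searched on both strands for ACAAAG, a core that SOX factors such as the oligodendrocyte factor SOX10 bind, for CTGGCAC, a form of the site of the myelin regulator MYRF, and for GAGGAAGT, a site of the microglial factor PU.1. No motif contains another. Capitals mark the matches, and CTTTGT is the first motif on the other strand. The windows are chr11:100574689-100574938 (plus strand), chr7:30914864-30915113 (minus strand) and chr9:120149492-120149741 (plus strand), each printed 5′ to 3′ along its gene.
Cnp: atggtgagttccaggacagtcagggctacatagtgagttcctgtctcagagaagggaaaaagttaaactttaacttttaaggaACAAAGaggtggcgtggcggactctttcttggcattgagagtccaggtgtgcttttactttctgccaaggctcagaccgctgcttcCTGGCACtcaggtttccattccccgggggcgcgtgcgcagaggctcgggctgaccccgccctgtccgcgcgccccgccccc
Mag: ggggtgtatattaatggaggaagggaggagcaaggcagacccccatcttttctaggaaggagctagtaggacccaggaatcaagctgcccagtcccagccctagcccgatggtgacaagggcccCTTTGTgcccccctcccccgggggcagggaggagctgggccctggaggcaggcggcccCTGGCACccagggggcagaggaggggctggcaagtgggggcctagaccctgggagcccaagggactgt
Mobp: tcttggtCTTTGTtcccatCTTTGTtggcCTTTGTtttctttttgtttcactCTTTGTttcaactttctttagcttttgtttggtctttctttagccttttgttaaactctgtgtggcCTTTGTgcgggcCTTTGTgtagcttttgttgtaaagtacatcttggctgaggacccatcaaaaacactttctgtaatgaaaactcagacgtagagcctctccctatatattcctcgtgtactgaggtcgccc

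The Mobp window held 6 matches to ACAAAG, and those of Cnp and Mag held 1 each. Of all 32851 windows of the same length, 16.5% had at least 1. CTGGCAC was found once each in the windows of Cnp and Mag, against 4.19% of all windows. A second Mag window overlaps the one shown and holds the same matches, and the remaining Mag window holds no match. GAGGAAGT was in none of the 10 windows and in 2.44% of all windows. Whether these motifs bear on the levels of the members was not tested.

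The comparison of FMC with FM asks what differs in microglia of the optic nerve when GFAP-Cre is present. No myelin gene passed a test for a difference between the genotypes, with 2 FM and 4 FMC libraries. Values were tested as log2(FPKM + 1) with limma across the 18208 genes that reached 1 FPKM in at least 2 libraries. Of the 9 members 5 passed this filter. With adjusted p under 0.05, 0 of these were higher in FMC and 0 lower, where 0% of all genes tested were called higher and 0.0275% lower. At an unadjusted p under 0.05 the members also gave 0, against 5.34% of all genes in either direction. Complete separation of the genotypes was seen for 0 of the 9 members. Among the genes tested, 4.34% had every FMC value above FM and 8.22% had every FMC value below it.

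Mbp differed by 1.145 ± 0.92 (SE), higher in FMC on the log2(FPKM + 1) scale (limma adjusted p = 0.993), with an FM mean of 2.47 ± 2.01 FPKM (SD, n = 2) and an FMC mean of 7.81 ± 6.98 FPKM (SD, n = 4). It was 0.52 without FM 1, 0.67 without FMC 1 and 1.77 without FM 2. Cldn11 differed by 0.97 ± 0.85 (adjusted p = 0.993) by 0.40 without FMC 4 and by 2.17 with a pseudocount of 0.1. Mag differed by 0.86 ± 1.06 (adjusted p = 0.999), by 0.17 without FM 2, by 1.55 without FM 1 and by 1.93 with the libraries blocked by title date. Cnp and Mobp had lower log2 means in FMC, at -0.34 ± 0.72 and -0.48 ± 0.84 (adjusted p = 0.999 each). Leaving out FM 2 turned both, to 0.34 for Cnp and to 0.63 for Mobp, which was then under the filter. Leaving out FM 1 gave -1.02 for Cnp and -1.58 for Mobp. Which member differed most thus changed with the setting. The SEs ran from 0.72 to 1.06, so a difference of 1 on this scale was not detectable in these libraries.

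For the 4 members below the filter the log2 differences were 0.10 for Mog, -0.13 for Mal, -0.10 for Ermn and 0.01 for Ugt8a. Exact two-sided permutation tests over 15 arrangements of the labels gave p = 0.933, 0.4, 0.933 and 0.933. The smallest possible p is 0.0667, so these tests could not reach the threshold of 0.05. Over all 9 members the median difference was 0.01, beside -0.12 over all genes tested, with 5 members higher and 4 lower. These directions are not firm, since those of Mog, Mal, Ermn, Ugt8a, Cnp and Mobp each turned when some library was left out. The spread of the tested members about their group means was 0.85 to 1.37 (residual SD, log2), against a median of 0.93 for genes with a mean of 1 to 10 FPKM. Titles date FM 1 and FMC 2 to neighbouring days, and likewise FM 2 and FMC 3, without saying what the dates record. In these pairs 8 of 9 members were higher in FMC 2 than in FM 1 (median 0.63) and 5 of 9 in FMC 3 than in FM 2 (median 0.09). Over all genes tested 46.9% and 38.1% were higher. FM 1 and FMC 2 are both male, whereas FM 2 is female and FMC 3 male, so genotype and sex cannot be told apart in the second pair. The direction was the same in both pairs for 4 of the 9. Markers of mural cells and fibroblasts summed to 99.6 (FM 1) and 161 FPKM (FM 2), against 12.9 to 117 FPKM over FMC. Erythroid markers summed to 160 (FM 1) and 128 FPKM (FM 2), against 25.3 to 33.0 FPKM over FMC. The sums of the myelin genes overlapped between the genotypes, and the part of these other markers in the comparison was not tested.

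**Figure D4:**
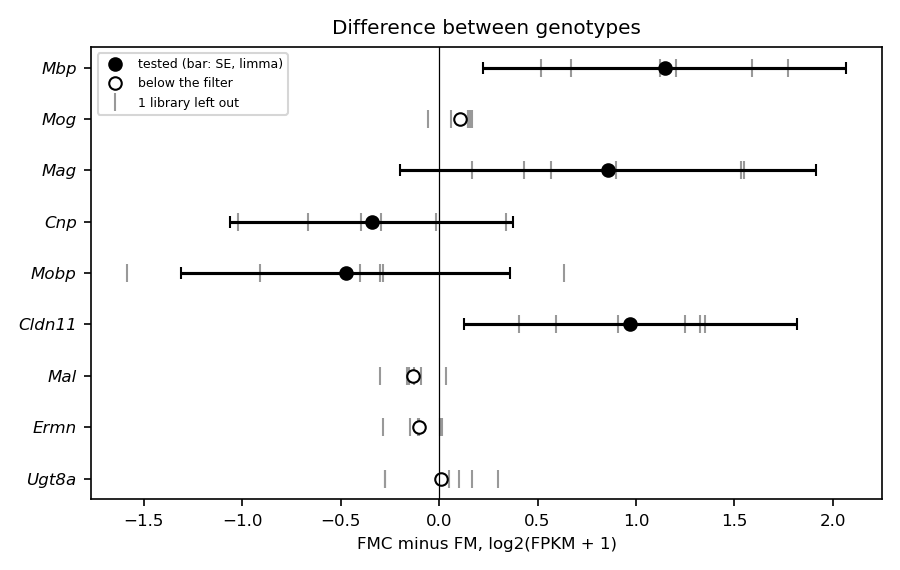
Points show the difference FMC minus FM in log2(FPKM + 1) for each myelin gene, filled with a bar of 1 SE where limma tested it and open where it was under the filter, and grey ticks show the difference with 1 library left out. The filled points run from -0.48 for Mobp to 1.145 for Mbp. The ticks of Cnp, Mobp, Mog, Mal, Ermn and Ugt8a fall on both sides of 0.

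The labels also give sex, with 3 male and 3 female libraries balanced over genotype. Cnp was higher in all 3 female libraries (18.7 ± 5.8 FPKM, SD, n = 3) than in all 3 male libraries (7.49 ± 2.40 FPKM, SD, n = 3). The log2 difference of male minus female was -1.21 ± 0.57 (SE) and did not pass (limma adjusted p = 0.693; exact two-sided permutation p = 0.1, the smallest that 20 arrangements allow). Such a separation was seen in 9.03% of all genes tested. Mal was separated the other way (0.136 to 0.344 FPKM in male and 0 to 0.0806 FPKM in female libraries). It was below the filter and so not among the genes tested, of which 3.27% were separated in that direction. Mag was 7.62 ± 3.87 FPKM in male and 1.53 ± 1.84 FPKM in female libraries, which overlapped because FMC 4 (female, 3.63 FPKM) lay above FM 1 (male, 3.48 FPKM). Its difference of 1.89 ± 0.81 had an unadjusted p of 0.0476 and an adjusted p of 0.662 (limma). Across all genes 0% were called for sex at the adjusted threshold and 7.44% at an unadjusted p under 0.05, which 1 of the 5 tested members reached. Mobp was at 3.53 and 4.50 FPKM in female FMC 1 and FM 2 but at 0.279 FPKM in female FMC 4, within the male range of 0.181 to 0.580 FPKM. Dnajc7, which overlaps Cnp, was between 165 and 303 FPKM in female and between 117 and 193 FPKM in male libraries. The part of Dnajc7 reads in the values of Cnp by sex was not tested.

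Other genes of myelin and of oligodendrocytes were compared by lists. Of 18 other myelin protein genes 17 had values, and 8 of these were under 1 FPKM in every library. Opalin, a glycoprotein of the myelin loops, was between 0.0221 and 1.38 FPKM, and Pllp, a proteolipid, between 0 and 0.481 FPKM. In FMC against FM 0 of the 6 tested genes passed with limma (0 at an unadjusted p under 0.05), with a median log2 difference of -0.10 over the 17. Of 11 oligodendrocyte transcription factors only 1 was at 1 FPKM or more in all libraries. Sox10 ran from 0 to 3.49 FPKM, Olig1 from 0 to 0.254 FPKM and Olig2 from 0 to 9.36 FPKM, and 0 of the 5 tested passed (0 unadjusted, median of all 11 -0.18). FMC 3, where Mag was highest, had Sox10, Olig1 and Olig2 listed at 0.

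Enzymes of myelin lipids were split. Fa2h, which hydroxylates the fatty acids of myelin galactolipids, was between 0.0397 and 0.693 FPKM, and Gal3st1, which makes sulfatide, between 0 and 0.424 FPKM. The ceramide synthase gene Lass2, also named Cers2, which acts in many cell types, was between 70.8 and 173 FPKM. Of the 14 enzymes 0 of 11 tested passed (0 unadjusted), with a median difference of 0.10. Of 19 other oligodendrocyte markers 0 of 13 tested passed, with 15 of the 19 lower in FMC by log2 mean and a median difference of -0.33, beside -0.12 over all genes tested. In 4 of the 19 (Bcas1, Enpp6, Ninj2 and Ppp1r14a) every FMC value lay below both FM values, and in 1 (Anln) every FMC value lay above, against 8.22% and 4.34% of all genes tested. Of these 4 only Bcas1 passed the filter on low values. Bcas1, a marker of newly forming oligodendrocytes, was the 1 with an unadjusted p under 0.05, at 4.85 FPKM (FM 1) and 3.10 FPKM (FM 2) in the controls, against 0.177, 1.18, 0.113 and 0.221 FPKM in FMC (log2 difference -1.84 ± 0.61 SE, limma adjusted p = 0.689). These 5 genes were named after their values were seen. Trf, the transferrin gene, was between 187 and 460 FPKM, Car2, a carbonic anhydrase gene, between 0.0147 and 16.3 FPKM, and Apod, an apolipoprotein gene, between 0.0178 and 27.6 FPKM.

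Markers of oligodendrocyte precursors were low. Pdgfra ran from 0.00858 to 0.731 FPKM, Cspg4 from 0.447 to 4.10 FPKM and Gpr17 from 0.0186 to 0.264 FPKM, and 0 of 5 tested genes of the 10 passed (0 unadjusted). Of markers of Schwann cells, which make peripheral myelin, Prx was between 0.0183 and 1.77 FPKM, whereas Pmp22, which other cell types also express, was between 238 and 479 FPKM. Of the astrocyte genes, Gfap stood highest in FM 2 (3.06 FPKM), whereas the other 5 libraries ran from 0.183 to 0.309 FPKM. By library, the median of the 10 astrocyte markers ran from 0.215 FPKM (FMC 3) to 1.16 FPKM (FM 1). FM 2 lay inside that range, at a median of 0.443 FPKM, although the sum of the markers was highest there (145 FPKM). Summed over 10 astrocyte markers the level was between 121 and 145 FPKM, of which the glutamate transporter gene Slc1a3, named after its value was seen, gave 104 to 130 FPKM. The part of other cell types in the myelin values was not tested.

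Likeness was measured as the root mean square difference, over the 6 libraries, between a gene's centred log2(FPKM + 1) values and the mean centred profile of the members. That mean profile was nearly flat, from -0.32 in FM 1 to 0.31 in FMC 2. Among 8363 eligible genes the 5 most like it were Hspa5 (0.077), Ipo5 (0.083), Pip4k2a (0.101), Atp9b (0.109) and Cerk (0.119). Mbp (0.95), Mag (1.18), Cldn11 (1.01), Mobp (0.89) and Cnp (0.70) were each farther from the profile than these were, and so were Mog (0.15), Mal (0.28), Ugt8a (0.34) and Ermn (0.37). The 5 were picked as the nearest of the 8363, so their being nearer is not a result about the members.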

How the data were processed

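RNA was measured in 6 libraries of sorted microglia. Cells were enriched on Percoll and flow sorted, and small RNA amounts were amplified with the Ovation method before paired-end Illumina sequencing, per the labels' protocols. The authors deposited 1 table of FPKM values per Ensembl gene. CASAVA 1.8.2, TopHat2 2.0.4, Bowtie2 2.0.0, Cufflinks 2.0.2 and mm9 are named, without roles, per the submitters' processing notes. FPKM gives a share of a library, and no depth per library was used, so precision rests on the spread between libraries. An exact 0 can reflect an estimate that failed. Genes that lacked a value in some library (426) were left out.

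Table starts count from 0 (21681 of 32797 genes then have the width of GENCODE M21, against 420 otherwise), and 1 was added. Strands, exons and transcripts came from GENCODE M21 on another build, by gene ID.

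Values were fitted as log2(FPKM + 1) with limma 3.58.1 in R 4.3.3 across all genes with at least 1 FPKM in 2 libraries, with an intensity trend, two-sided, Benjamini-Hochberg adjusted, threshold 0.05. The fit was tested on simulated data. The members and lists were chosen with earlier results of these data known. From each list up to the first 3 genes found are named, for the Schwann, precursor and transcription factor lists too, with all members, Nf1 and the 5 genes of most alike profile. From lists that serve as a check of other cells (neuron, endothelial, mural, erythroid) genes are not named. Median levels of the 10 endothelial markers were between 0.300 and 3.55 FPKM, and of the 8 neuron markers with values between 0.222 and 1.26 FPKM. Alternatives were another pseudocount, other filters and scalings, no trend, array weights, a term for sex, a block by replicate number or by title date, and omission of each library. Some genes of the lists are not reported here by name.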

Additional observations from a re-analysis of the deposited data

Results flagged for a closer look

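Among the 4 FMC libraries, 2 members had a library far from the others. Mog was 0.660 FPKM in FMC 2, and its gap to the next library was 0.924 of the whole range, above the critical value of Dixon's test for 4 samples. Mobp was 3.53 FPKM in FMC 1, with a gap of 0.895 of the range. Chance gives such a gap in about 1 of 20 groups, and 9 were examined.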

How the results depend on the processing

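The calls among the myelin genes stayed at 0 in each direction under every alternative run, for genotype and for sex. The median log2 difference of the 9 members (0.01) moved by less than the spread between libraries (SD 0.44), from -0.26 with a pseudocount of 0.1 to 0.28 with a date block, and from -0.15 to 0.30 with 1 library left out. With the replicate block it was 0.21. The replicate block reversed Cnp (0.069) and Mobp (0.070), and omission of FM 2 reversed Cnp (0.34), with a range of -1.02 to 0.34 over the libraries. These fits leave 1 residual degree of freedom or 1 FM library, which is then assumed to vary like FMC. The deviations of same-numbered libraries correlated at 0.031 and -0.057 across genes. Those of the title date pairs correlated at 0.057 (FM 1 with FMC 2) and -0.068 (FM 2 with FMC 3). With 2 FM libraries the deviations of FM 1 and FM 2 are equal with opposite sign. These values therefore cannot decide whether libraries were paired. For sex neither block could be fitted, as no residual degree of freedom was left. Over all genes the count of 5 lower in FMC ran from 0 to 10 and that of 0 higher from 0 to 4 (without FMC 4), and quantile normalization moved the median difference of all genes from -0.12 to 0.02.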

Other observations

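Several genes often listed with oligodendrocytes were abundant in every library of these sorted microglia, unlike the 9 myelin genes, and they are named here after their values were seen. Sirt2, a deacetylase found in myelin, was between 117 and 180 FPKM. Evi2a, which lies within an intron of Nf1, was between 68.5 and 180 FPKM. Among lipid enzymes, Elovl1, which lengthens fatty acids, was between 50.8 and 105 FPKM and Sgpl1, which degrades sphingosine phosphate, between 29.0 and 65.2 FPKM. In the genotype comparison 0 of these 4 genes passed with limma, and 0 had an unadjusted p under 0.05.

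Tspan2, a tetraspanin of myelin, stood at 7.11 FPKM in FM 1, with a range between 0 and 0.108 FPKM in the other 5 libraries. Enpp6, a choline phosphodiesterase of newly forming oligodendrocytes, stood at 0.461 FPKM (FM 1) and 13.8 FPKM (FM 2) in the controls, against 0.0400, 0.296, 0.0499 and 0.0570 FPKM in FMC 1 to FMC 4, all below both controls. Omg was the 1 tested gene of the other myelin proteins with all FMC libraries above both FM libraries, at 1.59 FPKM (FM 1) and 3.04 FPKM (FM 2) in the controls, against 6.997, 4.01, 4.09 and 7.49 FPKM in FMC 1 to FMC 4 (log2 difference 1.00 ± 0.73 SE, limma adjusted p = 0.993). Opalin, under the filter, was separated the same way, and 4.34% of all genes tested were.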
